A study of Mus musculus with 8 samples.

Results

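The Hox genes of mouse lie in 4 clusters, and 38 of them, chosen by name and cluster position and not by any measured value, were followed through maps of where 4 reprogramming factors sat on chromatin. These are 38 of the 21866 protein-coding genes tested. Each cluster was taken from its outermost listed genes plus 10 kb to either side, which gave HoxA (chr6:52152417-52270880, 10 genes), HoxB (chr11:96184316-96378256, 10 genes), HoxC (chr15:102911103-103046852, 9 genes) and HoxD (chr2:74658310-74775142, 9 genes) in mm10. Together the spans covered 564.988 kb and held 305 of the 661009 peak summits in all libraries.

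Hox genes encode homeodomain transcription factors that set position along the body axis, and their order on the chromosome follows the order in which they act along it, from anterior (low paralogue numbers) to posterior (high numbers). Genes of the same number in different clusters are paralogues that arose when an ancestral cluster was duplicated. In cells where they are off, the clusters are held silent by Polycomb complexes, while trithorax complexes keep active members on. Fibroblasts keep part of the Hox pattern of the body site they came from, whereas pluripotent cells keep the clusters mostly silent.

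Embryonic fibroblasts of the mouse (MEFs) were used on day 3 of their reprogramming. The libraries were made by CUT&Tag, in which an antibody brings the Tn5 transposase to a protein on chromatin and the DNA beside it is cut and tagged. Here the antibody bound the Flag epitope of the delivered factor. The 8 groups were Nanog, Oct4, Sox2 and Nr5a2, each in its native form and with a BiD fusion (NanogBiD, Oct4BiD, Sox2BiD and Nr5a2BiD), with 1 library of 100000 cells in each group. BiD comes from the BAF subunit SS18 and binds BRG1, which drives chromatin remodelling by that complex with ATP, and it was fused in front of the factor. The labels give neither the other factors delivered to the same cells nor the share of cells that took up a factor, so fewer cells with a site and less signal per cell cannot be told apart. The study's names for the Nanog conditions stand for mixtures with Oct4, and whether this holds for these libraries is not given. There was no library without a Flag factor, and peak lists hold no expression values, so neither the background of the antibody nor the Hox genes that were active in these MEFs was measured. The lists held 54794 to 120594 peaks, with median summit heights of 16 to 22 tags. A summit height is the number of sequence tags at the highest point of a peak, and it was not scaled to depth. The lists hold no read totals. The study's reporting summary does list read pairs for these libraries, with more pairs for native Oct4 and native Sox2 than for their fusions, and more for NanogBiD and Nr5a2BiD than for the native factors. Heights were therefore compared mainly by their percentile within a list. With 1 library per group there was no replicate check within a factor, and every interval on a count or share covers counting error only.

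The sequences that follow show a motif match near a Hox cluster summit for each factor. The summit chosen is the one of highest score with a short match to the motif known for that factor within 50 bp. Such a match does not show that the factor bound those letters. The Nanog letters also lay within 50 bp of an Oct4BiD summit, and the Nr5a2BiD letters within 50 bp of a Sox2BiD summit. Capitals mark the match (GCCATTA for Nanog, ATGCAAAT for Oct4, CCATTGTT for Sox2 and CAAGGNCA for Nr5a2, on either strand), and all 4 are written from the plus strand of mm10. The sites near Hoxa9 and Hoxa10 overlap untranslated exons, so 30 bases around the match are given, and the summit lies just outside them.
Nanog, native, chr6:52226293-52226322: ccgcacgctatTAATGGCccggtgttttgc
Oct4, native, chr6:52240715-52240744: gcattccaaatATGCAAATtggccggccct
Sox2BiD, chr6:52184149-52184269: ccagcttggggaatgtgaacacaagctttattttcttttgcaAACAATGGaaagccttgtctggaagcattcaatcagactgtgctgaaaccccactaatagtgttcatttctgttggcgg
Nr5a2BiD, chr11:96251104-96251224: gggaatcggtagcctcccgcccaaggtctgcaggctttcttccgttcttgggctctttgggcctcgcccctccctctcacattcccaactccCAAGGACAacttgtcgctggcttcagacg
The Nanog summit lay 134 bp upstream of a start site of Hoxa9 and reached 36 tags. The Oct4 summit lay 140 bp inside Hoxa10 and reached 37 tags. The Sox2BiD summit lay 354 bp upstream of a start site of Hoxa3, with 49 tags. The Nr5a2BiD summit lay in the gap between Hoxb13 and Hoxb9, 20293 bp upstream of the latter, with 47 tags.

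In the full lists peak summits were denser in the Hox clusters than in the genome as a whole in every library, and native Nr5a2 stood highest. The 4 clusters held 28 summits of native Nanog, 40 of NanogBiD, 16 of native Oct4, 45 of Oct4BiD, 16 of native Sox2, 48 of Sox2BiD, 70 of native Nr5a2 and 42 of Nr5a2BiD. Per 100 kb, this was 12.4 for native Nr5a2 (exact Poisson 95% interval 9.66 to 15.7) against 2.83 for native Oct4 and the same for native Sox2 (1.62 to 4.60). The ratio to the mean density of the placed chromosomes averaged 2.14 ± 0.629 (SD over 8 libraries), from 1.33 for native Sox2 to 3.13 for native Nr5a2. For native Oct4 and native Sox2 the genome mean, at 2.01 and 2.13 per 100 kb, lay inside the interval of the clusters, and for the other 6 libraries it lay under it.

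Much of this density was shared by the neighbourhood of the clusters. In the 200 kb to either side of each cluster, native Nanog had 5.06 summits per 100 kb against 4.96 inside, and native Sox2 had 3.00 against 2.83. Only the intervals of the Nr5a2 libraries excluded the density beside the clusters, which was 6.38 per 100 kb for native Nr5a2 and 4.06 against 7.43 inside for Nr5a2BiD. The mean ratio to the genome was 1.24 among the 20000 peaks of highest score in each library and 3.03 among peaks of at least 20 tags. In the former set the clusters were under the genome mean for native Oct4 (0.965), native Sox2 (0.724) and Sox2BiD (0.241), and native Sox2 was also under it at scores of at least 100 (0.923).

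**Figure D1:**
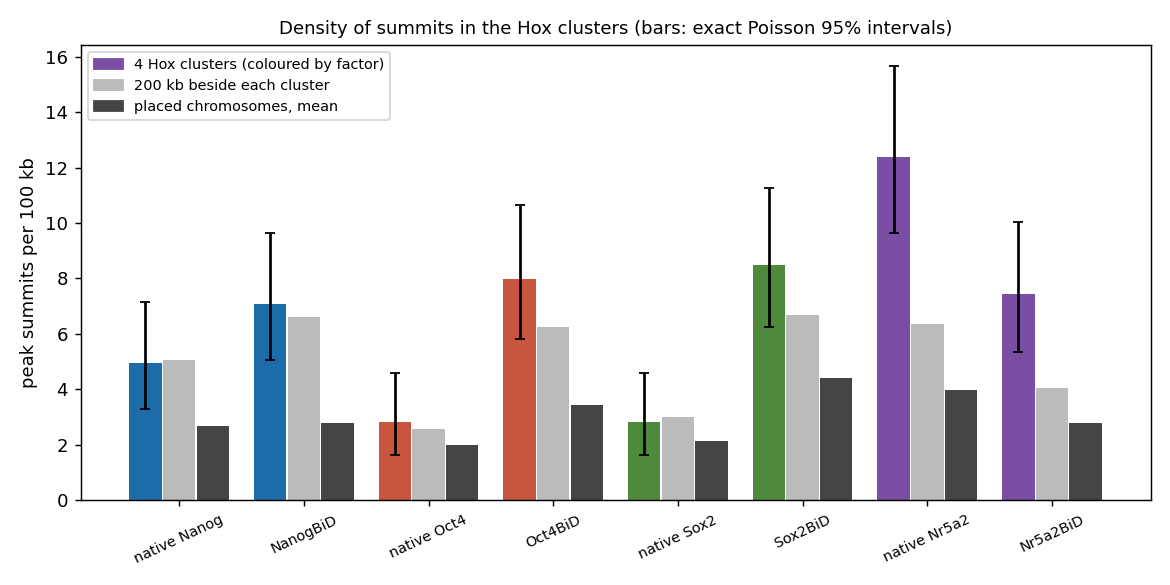
Peak summits per 100 kb (vertical axis) in the 8 libraries, for the 4 Hox clusters together (coloured bars, with exact Poisson 95% intervals), for 200 kb to either side of each cluster (light grey) and for the placed chromosomes (dark grey). The clusters stand highest in native Nr5a2 at 12.4 per 100 kb and lowest in native Oct4 and native Sox2 at 2.83.

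The spread over the clusters varied between libraries and was not tested. Native Nr5a2 had 18 summits in HoxA, 22 in HoxB, 17 in HoxC and 13 in HoxD. Native Oct4 had 7, 3, 5 and 1 in the same order, and native Sox2 had 7, 3, 4 and 2, so the HoxA cluster held the most for both. Oct4BiD had 12, 12, 11 and 10 summits, close to even counts, and NanogBiD had 9, 13, 9 and 9, with the most in HoxB, the longest span. Inside HoxB, the long gap between Hoxb13 and Hoxb9 held summits of all 4 factors, among them the Nr5a2BiD site printed above.

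**Figure D2:**
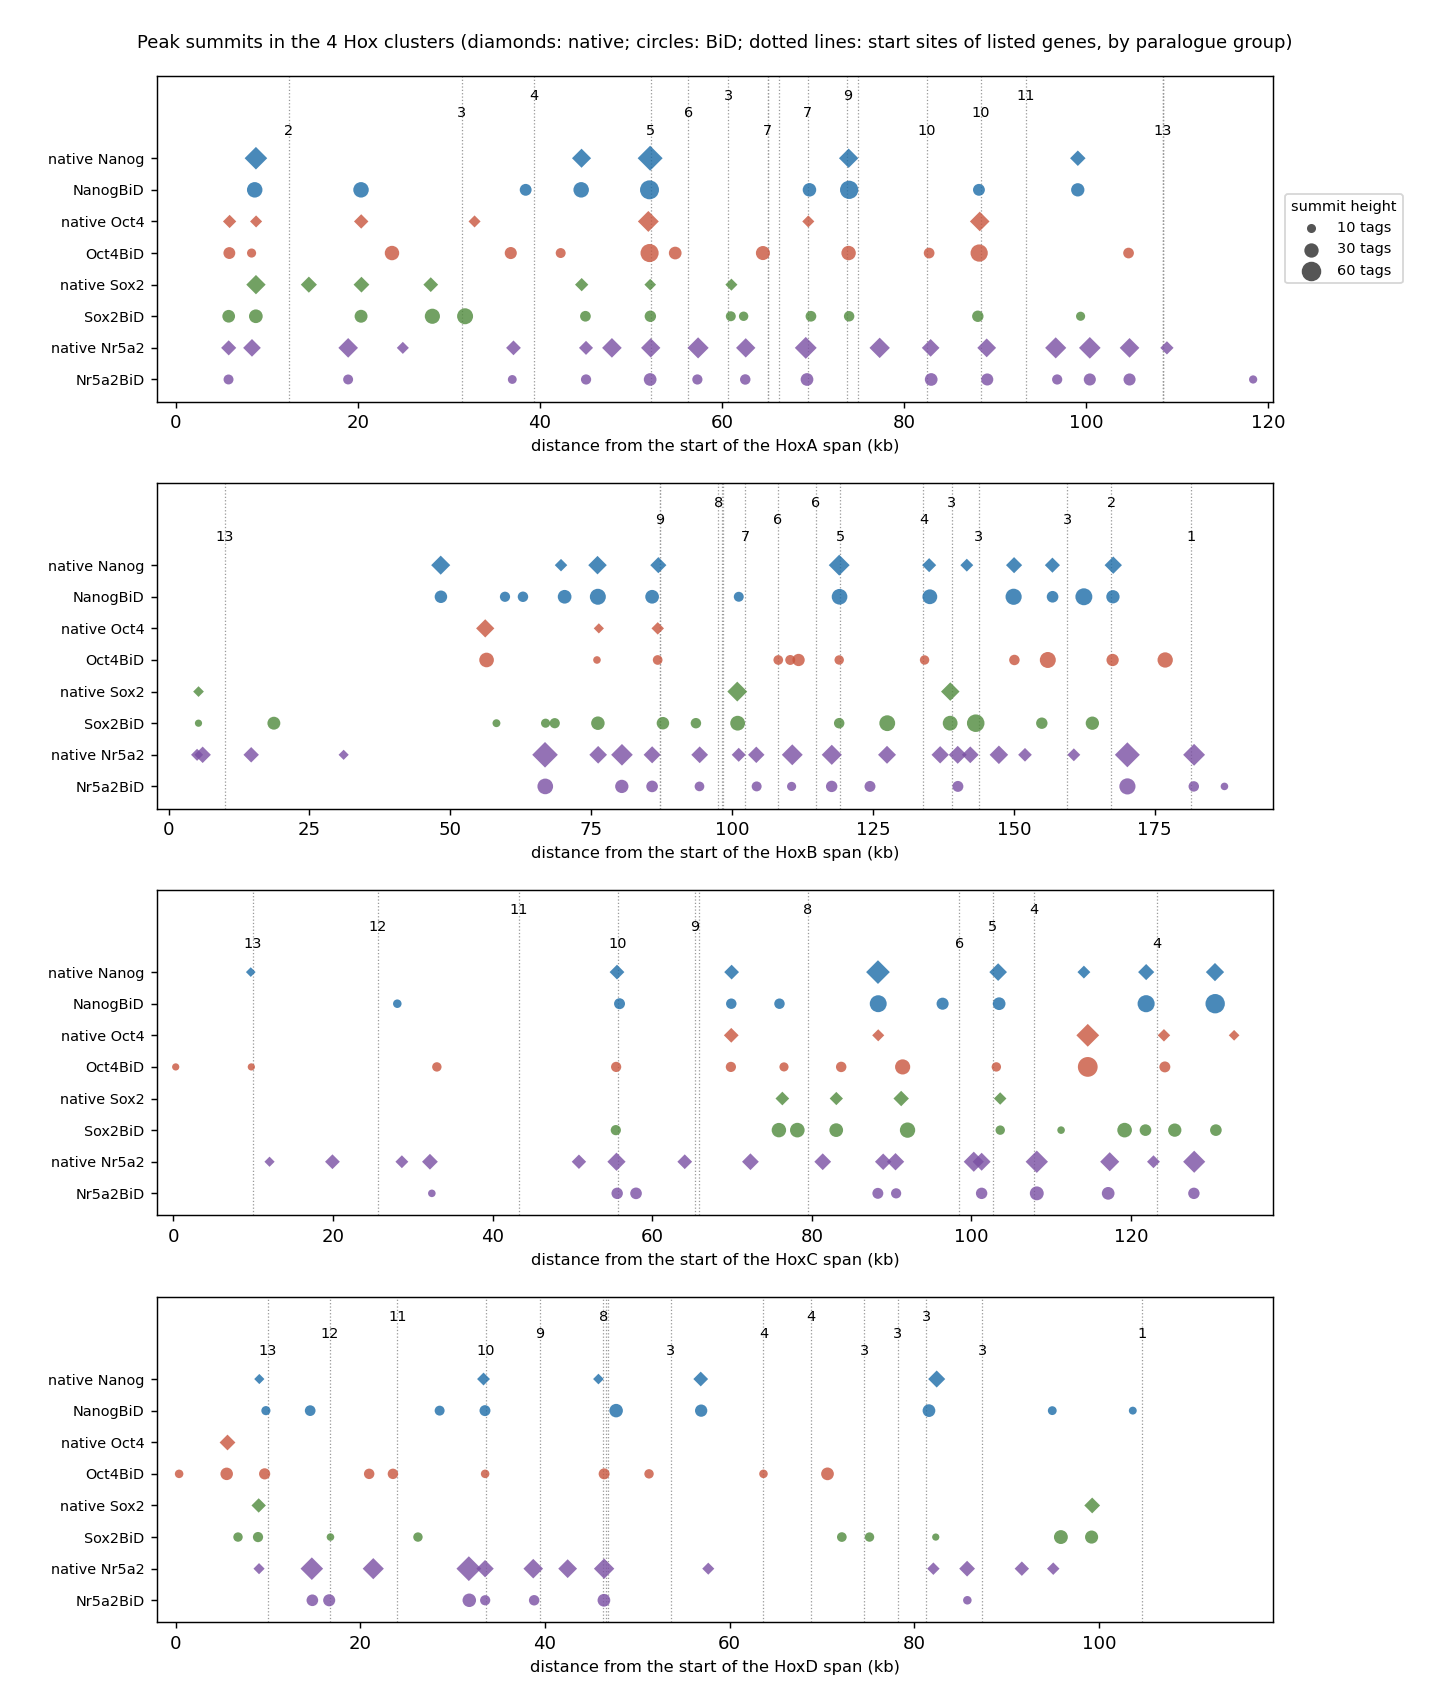
Position of every peak summit in the 4 Hox clusters (horizontal axis: distance in kb from the start of the span) by library (vertical axis), with diamonds for native factors, circles for BiD fusions and marker area in proportion to summit height in tags. Dotted lines are start sites of the listed genes with their paralogue numbers, and the 8 libraries meet at Hoxa5 in HoxA, where heights run from 13 to 69 tags.

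Start sites gave another picture, because the share of Hox genes near a summit was at or under that of all protein-coding genes in each library. A gene was called where a summit lay within 2 kb of a start site of any of its protein-coding transcripts. For native Nanog 14 of 38 Hox genes were called (36.8%, exact 95% interval 21.8 to 54) against 49.4% of all protein-coding genes, and for NanogBiD 18 (47.4%) against 52.7%. For native Oct4 the count was 6 (15.8%, 6.02 to 31.3) against 36.6%, and for Oct4BiD 19 (50%) against 53.8%. For native Sox2 it was 6 (15.8%) against 22.2%, and for Sox2BiD 16 (42.1%) against 50.2%. Native Nr5a2 reached 23 genes (60.5%) against 60.7%, and Nr5a2BiD 17 (44.7%) against 51%. The Hox share was under the background share in all 8 libraries, with a mean difference of -7.94 percentage points ± 6.27 (SD over 8 libraries), but the background lay outside the counting interval only for native Oct4. Within 5 kb of a start site the Hox share was instead 7.03 points higher on average, and among peaks of at least 20 tags it was 0.338 points higher.

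Few Hox genes were marked everywhere. Of the 38, 6 had no summit within 2 kb in any library, 8 had one in 1 library only and 1 had one in all 8. Among all protein-coding genes, 26.3% had none, 8.34% had one in 1 library and 15.4% had one in all 8, against 15.8%, 21.1% and 2.63% of the Hox genes. The number of start sites per listed gene ran from 1 to 5, which was for Hoxd3, and no summit counted for more than 1 listed gene.

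**Figure D3:**
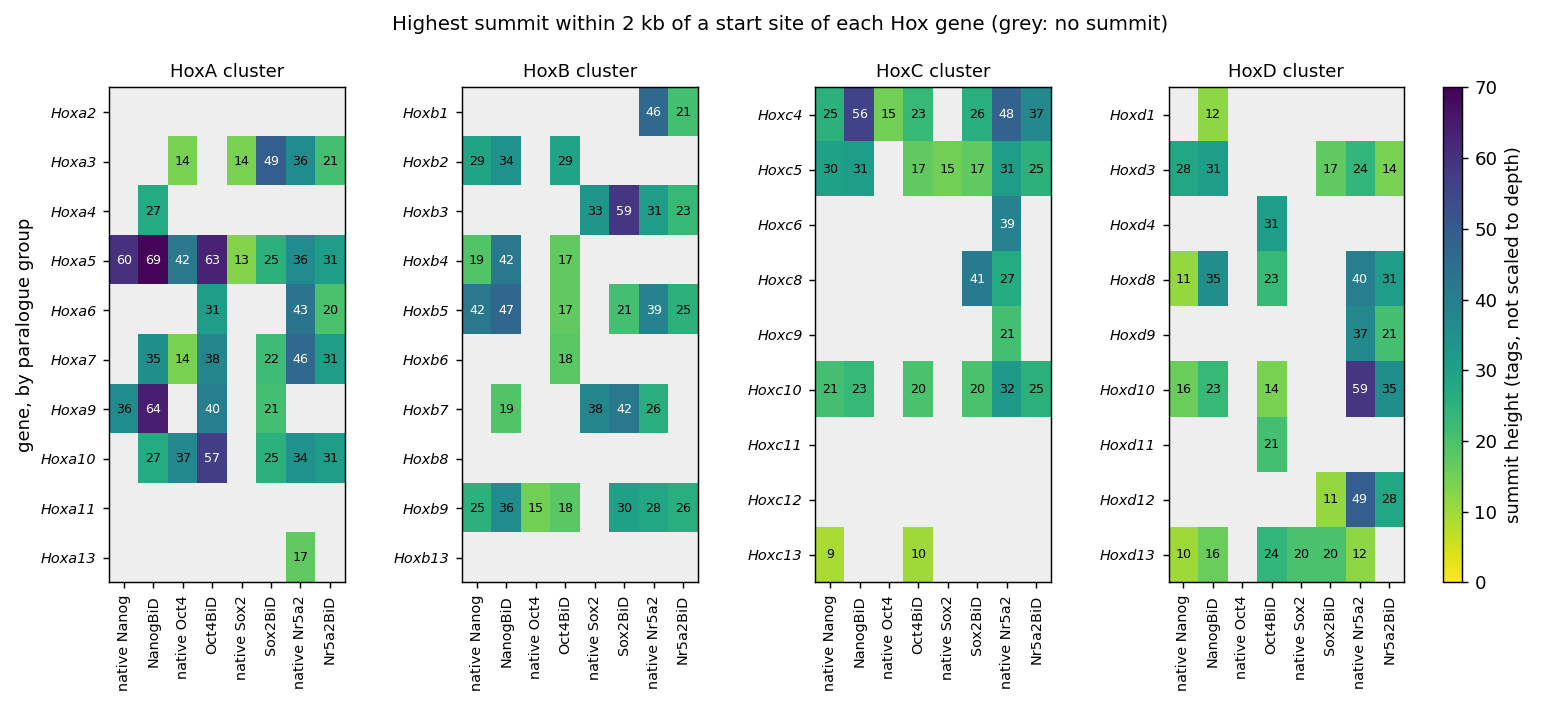
Height in tags of the highest summit within 2 kb of a start site for each of the 38 Hox genes (vertical axis, by paralogue number) in each of the 8 libraries (horizontal axis), with grey where there was no summit. Hoxa5 is filled in all 8 libraries, and Hoxa2, Hoxa11, Hoxb8, Hoxb13, Hoxc11 and Hoxc12 are grey throughout.

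In HoxA, Hoxa5 was the gene with a summit in every library. Hoxa5 (chr6:52201754-52204587, minus strand) patterns the lower neck and upper trunk and is needed for the lung. Its summit reached 60 tags in native Nanog, 69 in NanogBiD, 42 in native Oct4, 63 in Oct4BiD, 13 in native Sox2, 25 in Sox2BiD, 36 in native Nr5a2 and 31 in Nr5a2BiD. The 8 summits lay 6 to 258 bp from the annotated start. In the NanogBiD list this height stood at percentile 99.1, whereas the 13 tags of native Sox2 stood at percentile 5.09 of that list, so the site was among the tallest for Nanog and Oct4 and among the lowest for native Sox2. The native Sox2 peak had a score of 51.81, near the lowest of its list, 50. The NanogBiD peak, though tall, had a score of 112.32, under its list median of 138.01, and Sox2BiD was also under its median. Native Nanog and both forms of Oct4 and of Nr5a2 scored above their list medians.

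Hoxa7, which acts in the trunk, had 35 tags in NanogBiD, 14 in native Oct4, 38 in Oct4BiD, 22 in Sox2BiD, 46 in native Nr5a2 and 31 in Nr5a2BiD, and no summit in native Nanog or native Sox2. Hoxa10, a gene of the lumbar region and the uterus, had 27 tags in NanogBiD, 37 in native Oct4, 57 in Oct4BiD, 25 in Sox2BiD, 34 in native Nr5a2 and 31 in Nr5a2BiD, and likewise none in native Nanog or native Sox2. Both genes therefore carried a summit near a start with all 4 fusions and with only the Oct4 and Nr5a2 native factors. The start was not always the same. At Hoxa7 the Oct4BiD summit (chr6:52216911) lay 541 bp from 1 of the 4 starts. The native Oct4 summit (chr6:52221893) lay 39 bp from another, so these 2 heights are not of 1 site. At Hoxa10 the highest Nr5a2BiD summit lay 447 bp from 1 start and that of native Nr5a2 625 bp from the other. The NanogBiD peaks at both genes were near the lowest score of the list, 50, with 53.45 at Hoxa7 and 53.28 at Hoxa10. The native Oct4 summit of Hoxa10 is the octamer site printed above. Hoxa9, a regulator of blood progenitors, had 36 tags in native Nanog, 64 in NanogBiD, 40 in Oct4BiD and 21 in Sox2BiD, and no summit with native Oct4, native Sox2 or Nr5a2 in either form. These were 3 fusions and 1 native factor, and the native Nanog summit is the Nanog site printed above. The NanogBiD peak of Hoxa9, though tall, had a score of only 50.35.

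In HoxB, Hoxb9 (chr11:96271457-96276595), a gene of the thoracic skeleton, had a summit in 7 libraries. It held 25 tags in native Nanog, 36 in NanogBiD, 15 in native Oct4, 18 in Oct4BiD, 30 in Sox2BiD, 28 in native Nr5a2 and 26 in Nr5a2BiD. Native Sox2 alone had none. Hoxb5, which acts in vessel and gut nerve progenitors, had 42 tags in native Nanog, 47 in NanogBiD, 17 in Oct4BiD, 21 in Sox2BiD, 39 in native Nr5a2 and 25 in Nr5a2BiD. The Nanog, Oct4BiD and Sox2BiD summits lay 122 to 187 bp from its start, while those of Nr5a2 lay 1502 and 1522 bp away. The native Nanog peak had a score of 51.16, near the lowest of its list, 50. Hoxb3, a hindbrain gene, had no summit of Nanog or Oct4 within 2 kb of a start, and 33 tags in native Sox2, 59 in Sox2BiD, 31 in native Nr5a2 and 23 in Nr5a2BiD. The 33 and 59 tags of Sox2 are not of 1 site. The 59 tags of Sox2BiD stood 509 bp from 1 of the 3 starts, where native Sox2 had no summit. At another start native Sox2 had its 33 tags 286 bp away and Sox2BiD had 42 tags 308 bp away. Hoxb3 was thus marked at its starts by both forms of Sox2 and of Nr5a2. Inside this long gene but over 2 kb from a start lay summits of both Nanog forms, at the nearest 2090 bp away in native Nanog, and an Oct4BiD summit of 49 tags.

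Hoxb1, which gives a hindbrain segment its identity, had a summit with both Nr5a2 forms and in no other library. It reached 46 tags in native Nr5a2, 555 bp from the start, and 21 in Nr5a2BiD, 500 bp from the start. Hoxd9, a HoxD gene of the trunk and forelimb, had the same pattern, with 37 tags in native Nr5a2 and 21 in Nr5a2BiD. No Hox gene had this pattern for Nanog, Oct4 or Sox2.

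In HoxC, Hoxc4 (chr15:103018934-103036852), an anterior gene of the cluster, had 25 tags in native Nanog, 56 in NanogBiD, 15 in native Oct4, 23 in Oct4BiD, 26 in Sox2BiD, 48 in native Nr5a2 and 37 in Nr5a2BiD. Only native Sox2 lacked a summit. The highest Nr5a2 summits stood 360 to 363 bp from 1 of its 2 starts and those of Nanog 1396 to 1401 bp from the other. Native Nr5a2 also had a lower summit of 16 tags 480 bp from that other start, so it marked both. Hoxc5, its neighbour, had 30 tags in native Nanog, 31 in NanogBiD, 17 in Oct4BiD, 15 in native Sox2, 17 in Sox2BiD, 31 in native Nr5a2 and 25 in Nr5a2BiD, and none in native Oct4. Hoxc10, a gene of lumbar motor neurons and the hindlimb, had 21 tags in native Nanog, 23 in NanogBiD, 20 in Oct4BiD, 20 in Sox2BiD, 32 in native Nr5a2 and 25 in Nr5a2BiD. It was marked in all 4 fusions and by neither native Oct4 nor native Sox2.

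In HoxD, Hoxd13 (chr2:74668310-74671599), which shapes the digits, had a summit in 6 libraries: 10 tags in native Nanog, 16 in NanogBiD, 24 in Oct4BiD, 20 in native Sox2, 20 in Sox2BiD and 12 in native Nr5a2. In Oct4BiD it stood at percentile 64.9 of the list and in native Nr5a2 at 9.88. Hoxd10, a gene of the hindlimb and its motor neurons, had 16 tags in native Nanog, 23 in NanogBiD, 14 in Oct4BiD, 59 in native Nr5a2 and 35 in Nr5a2BiD. Those Nr5a2 summits stood 1865 and 1816 bp from the start, and the Nanog and Oct4BiD summits 100 to 274 bp from it. Nearer the start, at 107 and 94 bp, native Nr5a2 had 29 tags and Nr5a2BiD 20. Hoxd8, a trunk gene, had 11 tags in native Nanog, 35 in NanogBiD, 23 in Oct4BiD, 40 in native Nr5a2 and 31 in Nr5a2BiD. By the percentile of the highest summit within 2 kb native Nr5a2 stood highest at both, at 96.1 for Hoxd10 and 85.0 for Hoxd8. At Hoxd8 NanogBiD followed at 82.6, with a summit 864 bp from a start where that of native Nr5a2 lay 98 bp from one. Sox2 in either form had no summit at these 2 genes.

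The other genes had these counts. Hoxa3 had a summit in 5 libraries, among them the 49 tags of the Sox2BiD site printed above, and Hoxd3 in 5, as Hoxd8 and Hoxd10 had, with 14 to 31 tags. Hoxb7 was marked in 4 libraries, as Hoxb3 was, and Hoxa6, Hoxb2, Hoxb4 and Hoxd12 in 3 each. Hoxc8 and Hoxc13 were marked in 2 each. The 8 genes with a summit in 1 library were Hoxa13, Hoxc6 and Hoxc9 in native Nr5a2, Hoxa4 and Hoxd1 in NanogBiD, and Hoxb6, Hoxd4 and Hoxd11 in Oct4BiD. The 6 genes without any were Hoxa2 (anterior hindbrain and neural crest), Hoxa11 (forearm and uterus), Hoxb8 (trunk and myeloid progenitors), Hoxb13 (prostate and tail), Hoxc11 (hindlimb) and Hoxc12 (hair follicle).

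By paralogue number, groups 5 and 10 were marked most often. Each gene in each library was counted as a pair, and genes of a cluster are neighbours, so pairs are not independent. The Hox5 genes were called in 21 of 24 pairs (87.5%), the Hox10 genes in 17 of 24 (70.8%), the Hox7 genes in 10 of 16 (62.5%) and the Hox3 genes in 14 of 24 (58.3%). At the other end, the Hox11 genes were called in 1 of 24 (4.17%), which was Hoxd11 in Oct4BiD. The share did not run in 1 direction along the axis, with 35.7% of pairs for groups 1 to 3, 45.8% for groups 4 to 8 and 34.4% for groups 9 to 13. The clusters were close to one another, at 42.5% for HoxA, 37.5% for HoxB, 36.1% for HoxC and 40.3% for HoxD. Among all protein-coding genes the share called ran from 22.2% in native Sox2 to 60.7% in native Nr5a2. These limits are of single libraries, whereas the shares by cluster and by range of groups pool all 8 libraries. That all of these shares lay inside the limits is therefore a loose comparison. Library by library, the share of Hox genes minus that of all genes was on average -7.94 points, as given above.

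**Figure D4:**
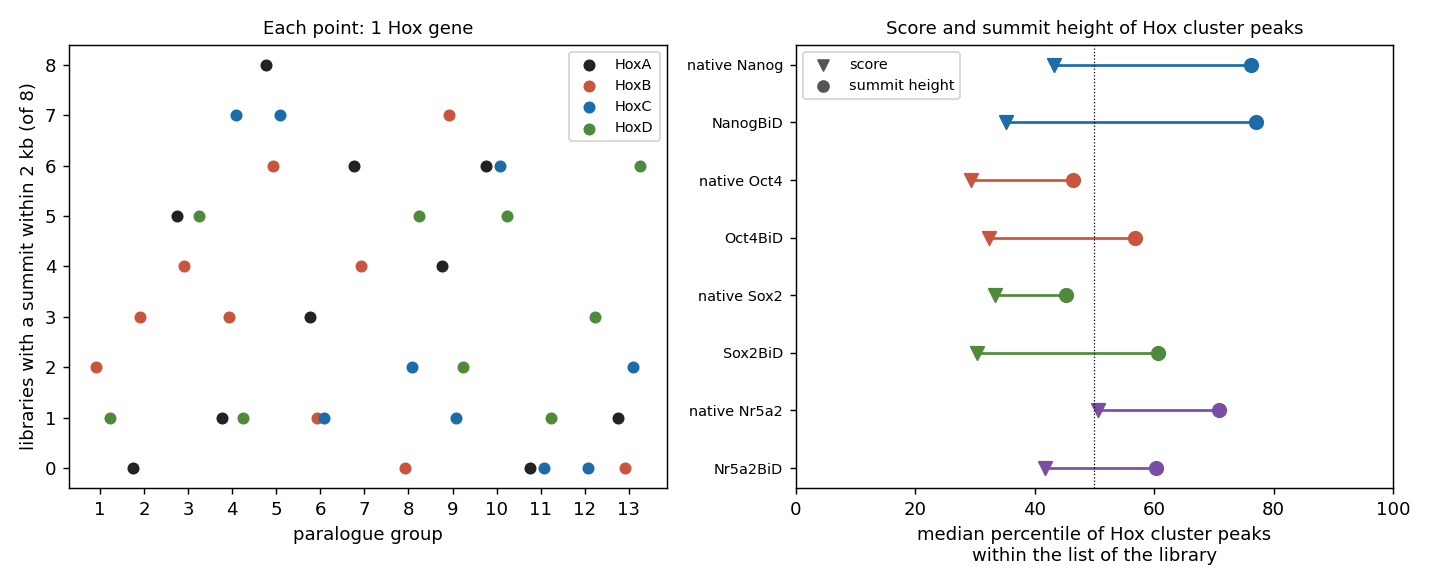
Left, the number of libraries (of 8) with a summit within 2 kb of each Hox gene, by paralogue group and coloured by cluster. Right, the median percentile of Hox cluster peaks within the list of each library, as a triangle for score and a circle for summit height, with heights at percentile 45.2 to 77.0 and scores at 29.4 to 50.5.

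The study asked what the BiD fusion changes, and at Hox genes the fusions of Nanog, Oct4 and Sox2 reached more start sites than the native factors while that of Nr5a2 reached fewer within 2 kb. BiD minus native was 4 genes in the case of Nanog, 13 with Oct4, 10 with Sox2 and -6 with Nr5a2, on average 5.25 ± 8.38 genes (SD, n = 4 factors, exact sign-flip permutation test, two-sided p = 0.375, and no outcome over 4 factors can pass 0.05). Leaving out Oct4 gave 2.67 and leaving out Nr5a2 gave 9. Within 500 bp of a start the Nr5a2 direction turned: Nr5a2BiD reached 9 genes and native Nr5a2 8, beside 10 and 8 for Nanog, 16 and 4 for Oct4 and 9 and 3 for Sox2. The mean difference was again 5.25 genes. With scores of at least 100 it was 1.25 (exact p = 0.875). The lengths of the peak lists moved with the counts within 2 kb: over all peaks the log2 ratio of BiD to native was 0.04 (Nanog), 0.78 (Oct4), 1.05 (Sox2) and -0.50 (Nr5a2), whereas the read pairs that the study lists ran the other way for Oct4, Sox2 and Nr5a2. Among the 20000 peaks of highest score in each library the mean difference in genes was -0.5 (exact p = 0.625).

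For Oct4 the gain, as a share of genes, was larger at Hox genes than over all genes, as a description without a test. Oct4BiD alone marked 14 Hox genes (36.8%), against 18.5% of all protein-coding genes, and native Oct4 alone marked 1, Hoxa3, against 1.26%. The share of called Hox genes was 34.2 points higher with Oct4BiD, compared with 17.3 points over all genes. It rose from 15.8% against 36.6% of all genes with native Oct4, and with Oct4BiD it was still under the background, at 50% against 53.8%. The 14 genes were Hoxa6, Hoxa9, Hoxb2, Hoxb4, Hoxb5, Hoxb6, Hoxc5, Hoxc10, Hoxc13, Hoxd4, Hoxd8, Hoxd10, Hoxd11 and Hoxd13, and 5 of them were in HoxD, where native Oct4 had a single summit and no called gene. For Sox2 the Hox gain was close to that over all genes: Sox2BiD alone marked 10 (26.3%) against 28.7%, native Sox2 alone marked none against 0.681%, and the share was 26.3 points higher against 28.0.

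NanogBiD alone marked Hoxa4, Hoxa7, Hoxa10, Hoxb7 and Hoxd1, 5 genes where 6.08% of all genes were in that class, and native Nanog alone marked Hoxc13, where the class held 2.77%. The NanogBiD peaks at Hoxa7 and Hoxa10 were near the lowest score of the list, as given above. Nr5a2BiD marked no Hox gene that native Nr5a2 had not, with 1.41% of all genes in that class. Native Nr5a2 alone marked Hoxa13, Hoxb7, Hoxc6, Hoxc8, Hoxc9 and Hoxd13, 6 genes, where 11.1% of all genes were in that class. Whether any factor differs from another in its gain was not tested beyond the sign flips given above.

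Per 10000 peaks of a library, which removes the length of the list but not its depth, Hox cluster summits went from 3.81 to 5.28 with the fusion for Nanog, from 2.92 to 4.79 for Oct4, from 2.75 to 3.98 for Sox2 and from 6.48 to 5.51 for Nr5a2. The log2 ratios were 0.47 (95% counting interval -0.26 to 1.22), 0.71 (-0.14 to 1.64), 0.53 (-0.31 to 1.45) and -0.23 (-0.82 to 0.34), so that each interval held 0. Their mean was 0.37 ± 0.42 (SD, n = 4 factors, exact sign-flip permutation test, two-sided p = 0.25). Among the 20000 peaks of highest score it was -0.29 (exact p = 0.75), and with scores of at least 100 it was 0.16 (exact p = 0.625). By cluster, the Oct4 ratio was 2.54 in HoxD, where 1 native summit stood against 10, and 1.22 in HoxB, but near 0 in HoxA, where native Oct4 already had 7 summits against 12.

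**Figure D5:**
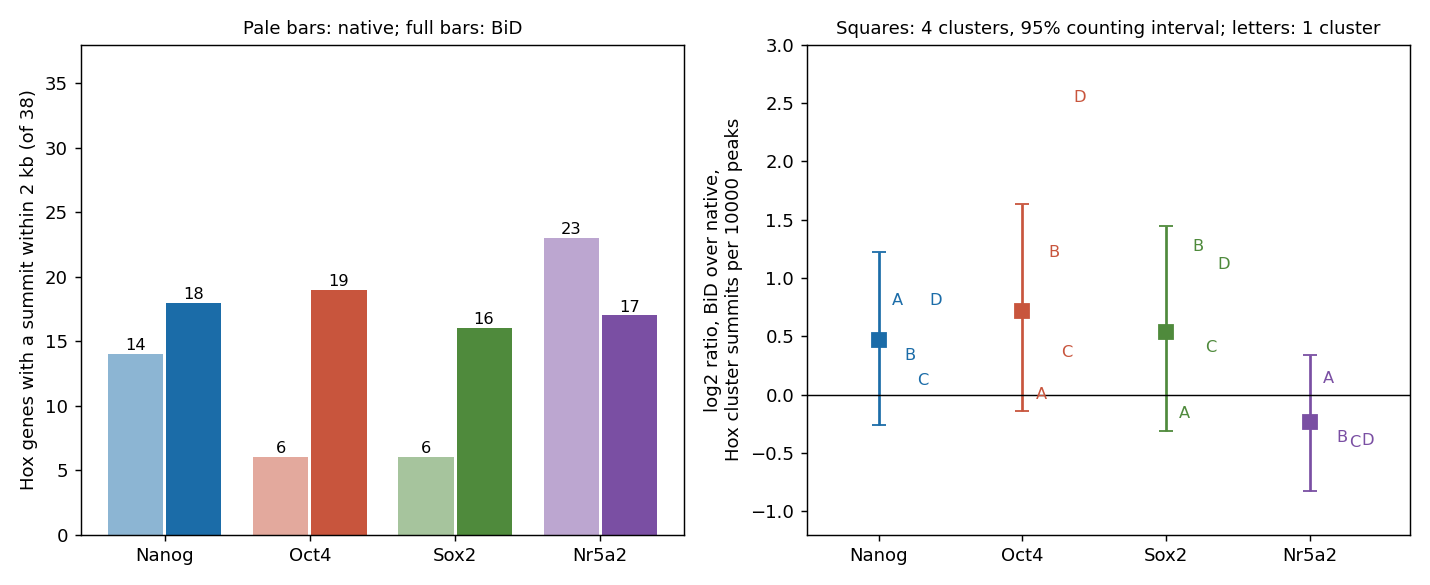
Left, the number of Hox genes (of 38) with a summit within 2 kb for the native factor (pale bars) and the BiD fusion (full bars) of each factor. Right, the log2 ratio of Hox cluster summits per 10000 peaks, BiD over native, for all clusters (squares, 95% counting intervals) and for each cluster (letters), from -0.23 for Nr5a2 to 0.71 for Oct4 over all clusters.

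Where a factor had fewer Hox peaks, most of them were also in its other form. Of native Nanog peaks in the clusters 25 of 28 (89.3%) overlapped a NanogBiD peak, of native Sox2 peaks 15 of 16 (93.8%) overlapped a Sox2BiD peak, and of Nr5a2BiD peaks 38 of 42 (90.5%) overlapped a native Nr5a2 peak. Among all peaks these shares were 72.7%, 86.3% and 86.0%. Native Oct4 shared 11 of 16 (68.8%), against 73.1% of all its peaks. In the larger list of the pair the share was lower: 24.4% for Oct4BiD (exact 95% interval 12.9 to 39.5, against 42.4% of all its peaks) and 31.2% for Sox2BiD (18.7 to 46.3, against 41.4%). The share over all Oct4BiD peaks thus lay above the counting interval of its Hox peaks. In NanogBiD the shared Hox peaks had a median height of 36 tags and the unshared ones 21, and in native Nr5a2 the medians were 36 and 21. This did not hold in every library, with 24 and 24.5 in Nr5a2BiD and with 20 in native Sox2 against 25 for its 1 unshared peak.

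Merging overlapping peaks of all libraries gave 116 Hox regions, and most belonged to few libraries. A peak of 1 library only made up 48 of them (41.4%, against 46.0% of the 306426 regions of the genome), and 3 (2.59%, against 1.49%) had peaks of all 8 libraries. Among the latter were the Hoxa5 start (chr6:52202334-52207921, 13 to 69 tags) and a long merged stretch over the non-coding transcripts of Hoxc6 (chr15:102997740-103008783, 14 to 55 tags). When summits had to lie within 100 bp of one another there were 202 regions, none in all 8 libraries and 139 in 1. Both Nr5a2 forms and nothing else made up 12 regions (10.3%, against 10.1% of genome regions). The like counts were 2 each for Nanog, Oct4 and Sox2 (1.72%, against 3.78%, 5.03% and 6.62%). No Hox region had all 4 fusions and no native factor, and none had all 4 native factors and no fusion.

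The summits lay mostly in non-coding parts of the clusters. By the GENCODE M21 annotation 137 of 305 (44.9%) were in introns, 79 (25.9%) between genes, 38 (12.5%) in untranslated exons, 38 (12.5%) in exons of non-coding transcripts and 13 (4.26%) in coding exons. Within 2 kb of a listed start lay 135 (44.3%), where such windows cover 35.8% of the spans. Over all peaks of a library 8.59% to 16.2% lay within 2 kb of a start, and these windows cover 4.43% of the placed chromosomes. Start sites are thus packed far more closely in the clusters, and the excess of summits at them was smaller there.

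Hox cluster peaks were wide and often tall for their score. Their median width was 2226 bp for NanogBiD and 1886 bp for native Nanog, against 913 and 839 bp over all peaks of these lists, and 866 to 1333 bp in the other 6 libraries, against 785 to 838 bp. The median Hox peak stood at percentile 76.2 (native Nanog) and 77.0 (NanogBiD) of its list by height but at 43.2 and 35.2 by score. By score the Hox medians were at percentile 29.4 to 50.5 in all 8 libraries. The 201 bp around Hox summits held 46% to 56% G or C and a mean of 5.92 to 9.18 CpG, against 42.6% to 50.7% and 2.27 to 3.84 CpG at all summits of the same libraries.

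Motif matches were few. A match to the factor's own motif lay within 50 bp of 23 of 305 Hox summits (7.54%). For Nr5a2 it was 16 of 112 (14.3%, against 22.7% of all Nr5a2 peaks, and 6 of 193, 3.11%, at Hox summits of the other factors). For Oct4 it was 3 of 61 (4.92%, against 7.68%, and 0 of 244 at the other factors' Hox summits), for Sox2 3 of 64 (4.69%, against 2.84%, and 1 of 241) and for Nanog 1 of 68 (1.47%, against 2.13%, and 3 of 237, 1.27%). Nr5a2 was the factor with most matches, as it was over all peaks. Among other motifs, the AP-1 letters TGANTCA were at 16 of 305 (5.25%, against 10% of all summits), the HOX-PBX letters TGATNNAT at 13 (4.26%, against 5.66%) and the CTCF motif at 0 (against 0.296%). Matches were counted on both strands. The CAAGGNCA letters contain none of the other motifs.

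The Nr5a2 matches that both forms shared are printed because they are Hox sites where the letters and the peaks of both libraries coincide. Native Nr5a2 had 10 matches and Nr5a2BiD 6, and 5 were at summits of both. These 5 were chosen after their values were seen. Each is written 5′ to 3′ along the strand that reads CAAGGNCA, in capitals, with plus or minus giving that strand in mm10.
Hoxb8 upstream, chr11:96278541-96278570, plus: acacagtccagCAAGGCCAgacataaggga
Hoxb7 intron, chr11:96288626-96288655, minus: tggggaagagaCAAGGACAttatttccttg
Hoxd10 upstream, chr2:74691834-74691863, plus: aggctgcggctCAAGGCCAttttcaaatct
Hoxa3 upstream, chr6:52214970-52214999, minus: tggctttgacaCAAGGTCAgggccattaac
Hoxa13 downstream, chr6:52257172-52257201, plus: ctgtcaaaagtCAAGGTCAcaaattgtctt
The heights in native Nr5a2 and Nr5a2BiD were 27 and 18 tags at the Hoxb8 site, 26 and 19 at Hoxb7, 29 and 20 at Hoxd10, 36 and 21 at Hoxa3 and 37 and 28 at Hoxa13. The native library was the taller at all 5. The Hoxd10 letters also lay within 50 bp of a NanogBiD and an Oct4BiD summit. The Hoxd10 site lay 107 and 94 bp upstream of the start by the summits of these libraries, and the others lay more than 1.8 kb from one. The site named for Hoxa3, the nearest start, lay in untranslated sequence within Hoxa7.

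RefSeq promoter windows of GRCm38.p6, which cover a start and the bases just before it, were on hand for 22 of the 38 genes, in 24 windows. None held the Nanog, Oct4 or Sox2 letters or the CTCF motif, 1 held CAAGGNCA (4.17%, against 6.71% of 32851 windows), 1 held TGANTCA (4.17%, against 7.81%) and 4 held TGATNNAT (16.7%, against 8.85%). The Hoxa5 window (chr6:52204538-52204837) was 61.7% G or C with 29 CpG and held none of the letters searched. Of the Hoxa5 summits in all 8 libraries, only those of Sox2BiD and native Nr5a2 lay inside this window. Outside it, the letters TGATNNAT lay within 50 bp of the NanogBiD and Oct4BiD summits of Hoxa5.

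Genes that work with the Hox genes were described by the same rule, and their counts differed between lists. ParaHox and Hox-linked homeobox genes, the relatives of the Hox family such as Gsx2, Cdx1 and Evx2, were the least marked, with 0 to 4 of 11 called per library and a mean of 11.4%. TALE homeodomain proteins, which bind DNA beside HOX proteins, were called in 3 to 8 of the 8 genes tested (mean 73.4%), with Pbx4 and Pknox1 in all 8 libraries and Pbx3 in 7. Polycomb subunits were called in 6 to 25 of 27 (70.4%), among them Ezh2, Cbx8 and Jarid2 in all 8. Trithorax genes, with Kmt2a, Kdm6a and Psip1 in all 8 libraries, were called in 3 to 10 of 11 (72.7%). Genes of the retinoic acid pathway, a signal that switches on anterior Hox genes in the embryo, were called in 3 to 9 of 15 (44.2%), with Rarg in 7 libraries and Rara and Rarb in 6. For all genes the share was 22.2% to 60.7% per library, as given above. That range is of single libraries, whereas the shares of the lists are means over 8 libraries, so the comparison is loose.

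Of 14 non-coding genes annotated inside the clusters, Mir615 was called in 5 libraries, which are 5 of the 7 with a summit at Hoxc5, the gene it lies in. Hoxd3os1 was called in 3, and Mir196a-1 and Hoxb3os in both Nr5a2 libraries and no other. Hotair, Hoxa11os and Mir10b were called in none, and the remaining 7 in 1 library each. No share over all non-coding genes was set beside these counts, so they cannot be read as high or low.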

How the data were processed

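The deposited peak lists were used, 1 per library. Per the study's methods and the submitters' processing notes, the authors used Trim Galore 0.6.4 for trimming, Bowtie2 2.4.5 for alignment to mm10, SAMtools 1.16.1 for filtering and MACS 1.4.2 for peaks, with no control library named. The methods say that replicates were merged before peak calling, while the reporting summary says that CUT&Tag was run once without biological replicates, so whether a list pools runs is not given. The deposited score is the authors' MACS value (10 times the negative log10 of the p-value, at least 50 in each list), and the deposited summit height is a signal in tags. Removal of poorly mapped reads leaves repeats without peaks. With all else equal, a deeper library gives more peaks at the same threshold. The read pairs that the study lists ran against the list lengths for Oct4, Sox2 and Nr5a2.

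Summits were joined to GENCODE M21 (GRCm38) in Python 3.11.15 (SciPy 1.17.1, pandas 2.3.3, NumPy 2.4.6, figures in matplotlib 3.10.9). Coordinates are 1-based. The counting code was tested on simulated data. The BiD contrast was tested over 4 factors by exact sign flips, and the 2 tests were not adjusted for each other. Alternatives were scores of at least 100, the 20000 best peaks, heights of at least 20 tags, other flanks, windows and start sites, and each factor left out. Members, gene lists and tests were chosen with earlier results of these data known. In each cluster the 3 genes marked in most libraries (ties broken by the highest height percentile), genes marked by both forms of 1 factor alone, up to 4 genes marked by both forms of a factor that differed most between forms, and genes never marked were named with values. The other genes were named in counts, and the Hox gene of the annotation beyond these 38 is not reported here.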

Additional observations from a re-analysis of the deposited data

Results flagged for a closer look

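In the full lists Nr5a2 went against the other factors in both measures of the BiD contrast. The log2 ratio of Hox cluster summits per 10000 peaks was -0.23 for Nr5a2 and above 0 for Nanog, Oct4 and Sox2. The number of Hox genes with a summit within 2 kb of a start site differed by -6 (BiD minus native) for Nr5a2, where the other 3 factors gave 4 to 13. Each value compares 1 library with 1 library, and the difference between factors was not tested. Within 500 bp of a start Nr5a2 instead went with the others, with 9 genes in Nr5a2BiD and 8 in native Nr5a2. Among the 20000 peaks of highest score Sox2 went from 3 Hox summits to 1 with the fusion and Nr5a2 from 9 to 6, and Oct4, Sox2 and Nr5a2 each had 1 gene fewer. The Nr5a2 fusion was also the only one with fewer peaks in its whole list than the native factor, 76217 against 108030.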

How the results depend on the processing

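Of 38 alternatives, 27 kept direction and stayed within the spread. Among the 20000 peaks of highest score the mean log2 ratio of Hox summits, BiD over native, was -0.29 (exact p = 0.75), the mean difference in called genes -0.5 (exact p = 0.625) and the density ratio to the genome 1.24. With heights of at least 20 tags that ratio was 3.03 and the Hox share of called genes exceeded that of all genes by 0.338 points. It exceeded it by 7.03 points within 5 kb of a start and was -14.7 points within 500 bp. With each factor left out in turn the mean log2 ratio ran from 0.26 (without Oct4) to 0.57 (without Nr5a2) and the mean gene difference from 2.67 (without Oct4) to 9 (without Nr5a2). By summits within 100 bp, 139 regions were in 1 library and 0 in all 8. The own motif was at 3.61% of Hox summits within 25 bp and 12.8% within 100 bp. For the windows the construction sets the direction of the motif change, and for the rest the cause was not tested. With scores of at least 100 the mean log2 ratio was 0.16 (exact p = 0.625) and the mean gene difference 1.25 (exact p = 0.875). Within 500 bp the gene difference was 5.25 and above 0 for all 4 factors. Scores of at least 100, other flanks, the gene's 5′ end alone and peak overlap in place of summits kept the direction of every mean. The lists hold no read totals, and reads were not thinned to an equal depth here. Both tests pair the libraries by factor, and no pairing by replicate number exists.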
